A study of Rattus norvegicus with 48 samples.

Results

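MicroRNA-204-5p (rno-miR-204-5p) is the mature microRNA (miRNA) cut from the 5′ arm of the Mir204 hairpin. It was taken by name, as 1 of the 188 mature miRNAs in the table, and followed in every library of 4 microdissected segments of the rat kidney. These were the glomerulus and, downstream of it, the proximal tubule, the thick ascending limb (the distal part of Henle's loop) and the collecting duct. They came from 3 naive male Sprague-Dawley rats, 6 months old, which had no treatment and no named genetic change, so every group shares strain, sex and age. Frozen kidney sections of 8 µm were stained and the segments were cut out with a laser. Antibodies to glutathione-S-transferase, Tamm-Horsfall protein and aquaporin-2 marked the proximal tubule, the thick ascending limb and the collecting duct, whereas a histochemical stain served for the glomeruli, so the stain and the segment cannot be told apart. Each of the 3 tubule segments had 3 libraries, 1 from each rat. The glomerulus had 2, from rats 1 and 3. Sequencing each on 4 flow cells gave 44 runs, and the 4 runs of a library were averaged and counted once.

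A miRNA guides Argonaute proteins to messenger RNAs that pair with its seed, the bases near its 5′ end, and so lowers their translation and stability. miR-204-5p lies within Trpm3, which codes for a cation channel, and its close relative miR-211-5p lies within Trpm1. In other work miR-204-5p is known as a miRNA of epithelia, among them the retinal pigment epithelium, the choroid plexus and the renal tubule, where its loss has been studied in injury and fibrosis.

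The mature sequences of miR-204-5p and miR-211-5p are shown because their near identity bears on which reads can be assigned to miR-204-5p. Capitals mark the seed, bases 2 to 8 from the 5′ end, and both sequences are from RefSeq.
rno-miR-204-5p: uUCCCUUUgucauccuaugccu
rno-miR-211-5p: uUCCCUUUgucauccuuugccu
The pair shares the seed UCCCUUU and differs by A17U, with the base of miR-204-5p first and positions counted from the 5′ end. These were the 2 sequences with that seed among 724 rat mature miRNAs in the RefSeq table. miR-211-5p itself was not analysed here, and how reads that fit both were assigned is not given in the sources used here. Of the 188 measured miRNAs, 172 had a RefSeq sequence under the same name, and among those miR-204-5p alone carried the seed. The nearest of the other measured sequences was 8 edits away.

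The hairpin is shown to place the mature strand, in capitals, within its precursor.
Mir204 hairpin: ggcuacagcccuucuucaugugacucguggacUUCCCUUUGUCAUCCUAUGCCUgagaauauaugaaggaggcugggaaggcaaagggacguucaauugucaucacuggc
On the GRCr8 assembly used by RefSeq it covers chr1:229743461-229743570 on the plus strand, with the mature strand at chr1:229743493-229743514. It lies inside the span of Trpm3, on the same strand. The submitters' processing notes name rn6, another build, and no coordinate was carried between them. Of the 4 mature strands of the miR-204 and miR-211 hairpins, miR-204-5p was the 1 measured.

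Summed values and depth were both uneven. The library means of the deposited values, summed over all 188 miRNAs, ran from 77457 to 255518. These values are normalized, so their sum is not a measure of depth. Nearly all low values of each run were whole multiples of a step, taken as the size of a single read, and the runs of a library held between 147996 and 1296995 such reads in the table. The lowest figure of both kinds belonged to the rat 3 glomerulus. The highest belonged to different libraries. The highest sum was that of the rat 2 collecting duct, with 788820 reads. The most reads were in the rat 3 thick ascending limb, with a sum of 171675. Markers went with the labels in part. The 8 measured miRNAs of a 10-member tubule epithelium list made up 12.1% to 17.2% of the proximal tubule libraries, 3.72% to 7.77% of the glomeruli, 4.80% to 6.54% of the thick ascending limb and 4.01% to 4.14% of the collecting duct. Most of this was miR-192-5p and miR-30a-5p, and in the glomeruli miR-30a-5p by itself took 2.76% in rat 1 and 6.71% in rat 3. The other 6 members made up 0.0768% to 0.106% of the glomeruli and 0.399% to 0.655% of the tubule libraries. Both listed endothelial strands, miR-126a-3p and miR-126a-5p, took 3.81% to 5.55% of the glomeruli and 0.791% to 1.48% of the tubule segments.

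miR-204-5p was a miRNA of middling to low abundance in all 4 segments. Its library means ran from 15.3 to 111 on the deposited scale, which is normalized by the trimmed mean of M-values (TMM), and its rank among the 188 miRNAs from 65 to 110. It made up 0.0100% to 0.0526% of a library's summed value. The proximal tubule had the highest mean value, 64.2 ± 45.3 (SD, n = 3), then the glomerulus with 43.8 ± 24.3 (SD, n = 2), the collecting duct with 26.6 ± 7.50 (SD, n = 3) and the thick ascending limb with 20.7 ± 7.78 (SD, n = 3). No difference between segments passed the test, and the widest spread was among the proximal tubules of the 3 rats.

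In the proximal tubule, the segment that reclaims most of the filtered solutes, the 3 libraries differed 5.46-fold. The mean was 20.3 in rat 1, with single runs between 16.6 and 25.8. In rat 2 it was 61.4, with runs between 40.6 and 81.2. In rat 3 it was 111, with runs between 86.6 and 139. The runs of the 3 rats did not overlap, and rat 3 was above rat 2 and rat 2 above rat 1 on each of the 4 flow cells. The reads behind these means were 76, 336 and 125. As shares of the reads they gave 0.0140% (95% Clopper-Pearson interval 0.0110 to 0.0175) in rat 1, 0.0368% (0.0329 to 0.0409) in rat 2 and 0.0518% (0.0431 to 0.0617) in rat 3. These intervals, which cover counting error only, did not overlap either. The SD of log2 values over the proximal tubule libraries was 1.21, against a median of 0.42 for the 34 miRNAs within 1 log2 unit of its mean level, miR-204-5p included. It was among the 4 of these with a spread at least that large.

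In the glomerulus, the filtering tuft of capillaries, mesangial cells and podocytes, the value was 61.0 in rat 1, with runs between 55.1 and 67.0. It was 26.6 in rat 3, with runs between 21.5 and 32.8. The runs of the 2 libraries did not overlap, yet as a share of the reads they were close. The share was 0.0361% (0.0321 to 0.0405, 292 reads) in rat 1 and 0.0338% (0.0251 to 0.0445, 50 reads) in rat 3. The difference in value went with the difference in summed value between the 2 libraries.

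The thick ascending limb, which takes up salt without water, had 15.3 in rat 1, 29.6 in rat 2 and 17.2 in rat 3. Single runs spanned 11.7 to 40.6. Rat 2 stood above the other two, also by share of reads, with 0.0274% (0.0219 to 0.0337, 88 reads) against 0.0110% (0.00703 to 0.0163, 24 reads) in rat 1 and 0.0105% (0.00880 to 0.0124, 136 reads) in rat 3. With 24 reads, the rat 1 library held the fewest of all.

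In the collecting duct, where water uptake is tuned through aquaporin-2, the values were 22.4, 35.3 and 22.2 in rats 1, 2 and 3. Runs spanned 13.4 to 43.8 and overlapped between the rats. The shares of reads were 0.0126% (0.0102 to 0.0155, 94 reads), 0.0132% (0.0108 to 0.0160, 104 reads) and 0.0112% (0.00879 to 0.0142, 71 reads). All 3 intervals, which cover counting error only, overlapped. Overlap is not a test, and a difference between the collecting ducts of the rats was not tested.

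**Figure D1:**
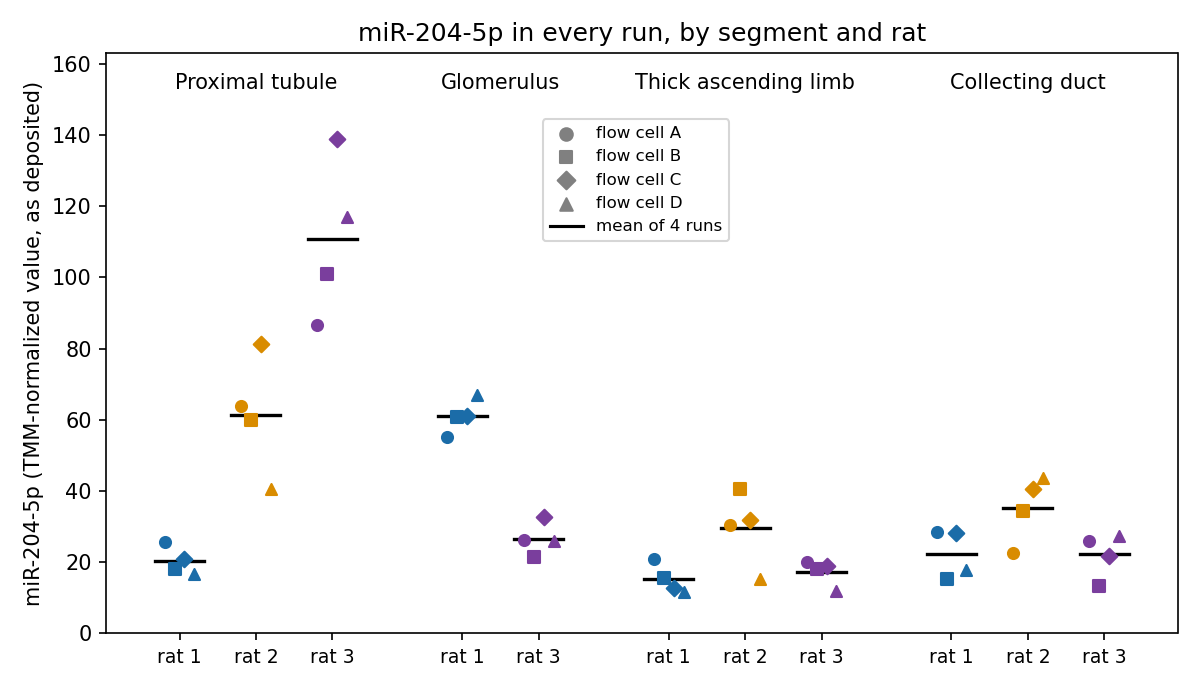
Deposited TMM-normalized value of miR-204-5p (vertical axis, linear) in each of the 44 runs, by segment and rat. Marker shape gives the flow cell, colour the rat, and the line the mean of the 4 runs of a library. The runs of the proximal tubule of rats 2 and 3 lie between 40.6 and 139, and those of rat 1 between 16.6 and 25.8.

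**Figure D2:**
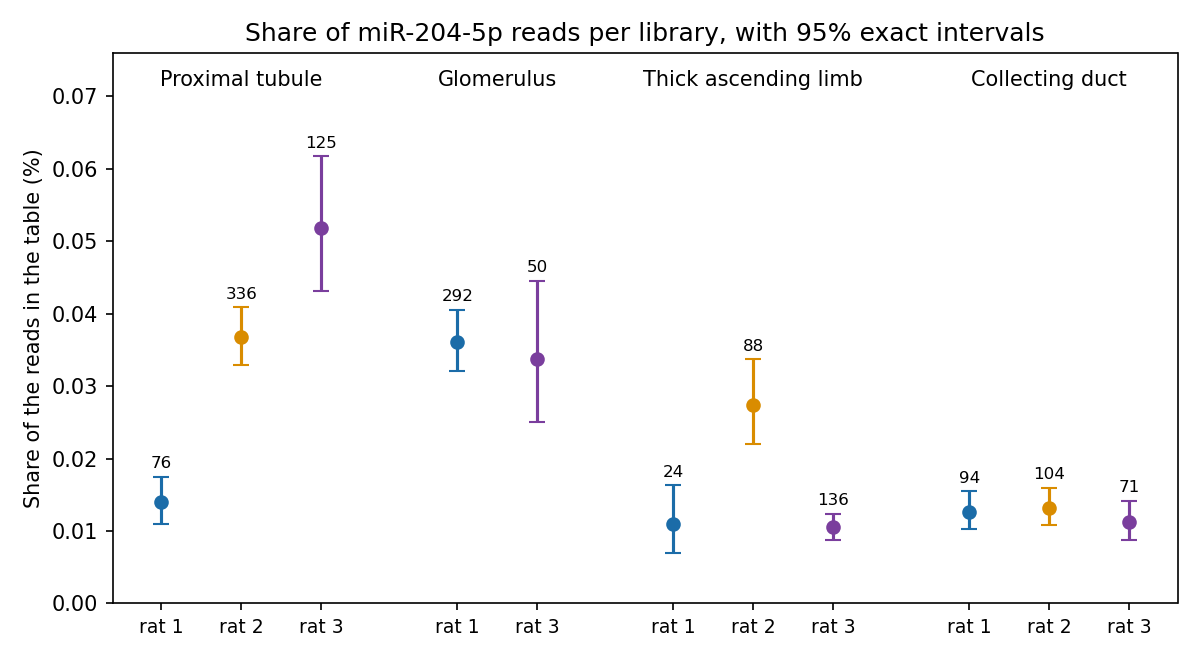
Reads of miR-204-5p as a percentage of the reads in the table (vertical axis), 1 point per library, with the 95% Clopper-Pearson interval as the bar and the number of miR-204-5p reads above it. The glomerulus libraries lie at 0.0361% and 0.0338%, above every interval of the collecting duct, while the proximal tubule runs from 0.0140% to 0.0518%.

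The order of the segments depended on the measure. By mean share of the summed value, the glomerulus, at 0.0357% ± 0.00184 (SD, n = 2), and the proximal tubule, at 0.0338% ± 0.0195 (SD, n = 3), changed places. The thick ascending limb, at 0.0154% ± 0.00879 (SD, n = 3), and the collecting duct, at 0.0126% ± 0.00104 (SD, n = 3), changed places too. Neither pair of neighbours differed beyond its spread. By share, both glomerulus libraries lay above all 3 of the collecting duct, a separation that 25.0% of the 188 miRNAs also showed. Both also lay above all 3 of the thick ascending limb, as was the case for 21.8% of the miRNAs. By deposited value, miR-204-5p of the glomerulus overlapped with both of these segments.

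In the 2 glomerulus libraries the level of miR-204-5p was within the range of the proximal tubule by value and by share. Whether miR-204-5p is particular to epithelial cells was not tested. The tubule epithelium list without its 2 most abundant members had a lower share in both glomerular libraries than in every tubule library, as given above. Of the 2 left out, miR-30a-5p had its highest mean share in the glomerulus. With all 8 measured members the rat 3 glomerulus, at 7.77%, lay above every library of the thick ascending limb and the collecting duct. The rat 1 glomerulus, at 3.72%, lay below all of these. The part of tubule RNA in the glomerular miR-204-5p was not tested. In these bulk captures, fewer cells of a type and less RNA per cell cannot be told apart.

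The rank of miR-204-5p, which does not depend on the scaling of a library, was 105, 75 and 65 of 188 in the proximal tubules of rats 1, 2 and 3. It was 71 and 73 in the glomeruli of rats 1 and 3. The thick ascending limb had ranks of 107, 81 and 110 and the collecting duct of 102, 96 and 99. Ranks in the glomerulus were thus better than in every library of the thick ascending limb and the collecting duct, and the proximal tubule of rat 1 ranked with the last 2 segments. How many of the 188 miRNAs separate in this way by rank was not counted. By share, 21.8% did so for the limb and 25.0% for the duct, as given above. miR-10a-5p, the most abundant miRNA by mean in each segment, set the scale at the other end. The mean of miR-204-5p was 0.170% of it in the glomerulus and 0.143% in the proximal tubule, but 0.0272% in the collecting duct and 0.0293% in the thick ascending limb. These ratios also carry the differences in rno-miR-10a-5p itself, which had a mean of 25807 in the glomerulus and 98002 in the collecting duct and differed among the segments (limma, adjusted p = 0.0121).

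Next to miR-204-5p in order of mean value stood different miRNAs in each segment. In the proximal tubule miR-339-3p, at 68.5 ± 17.2 (SD, n = 3), was next above and miR-100-5p, at 63.7 ± 6.27 (SD, n = 3), next below. In the glomerulus these were miR-184, at 52.4 ± 50.5 (SD, n = 2), and miR-200b-3p, at 42.0 ± 38.6 (SD, n = 2). In the thick ascending limb they were miR-361-5p, at 22.3 ± 5.93, and miR-145-5p, at 20.1 ± 5.01, and in the collecting duct miR-27b-5p, at 26.9 ± 12.6, and miR-196b-5p, at 26.0 ± 13.2 (SD, n = 3 each). None of these neighbours differed from miR-204-5p by more than its own spread between rats. They were picked as next in order, so this closeness follows from the choice and is no result.

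**Figure D3:**
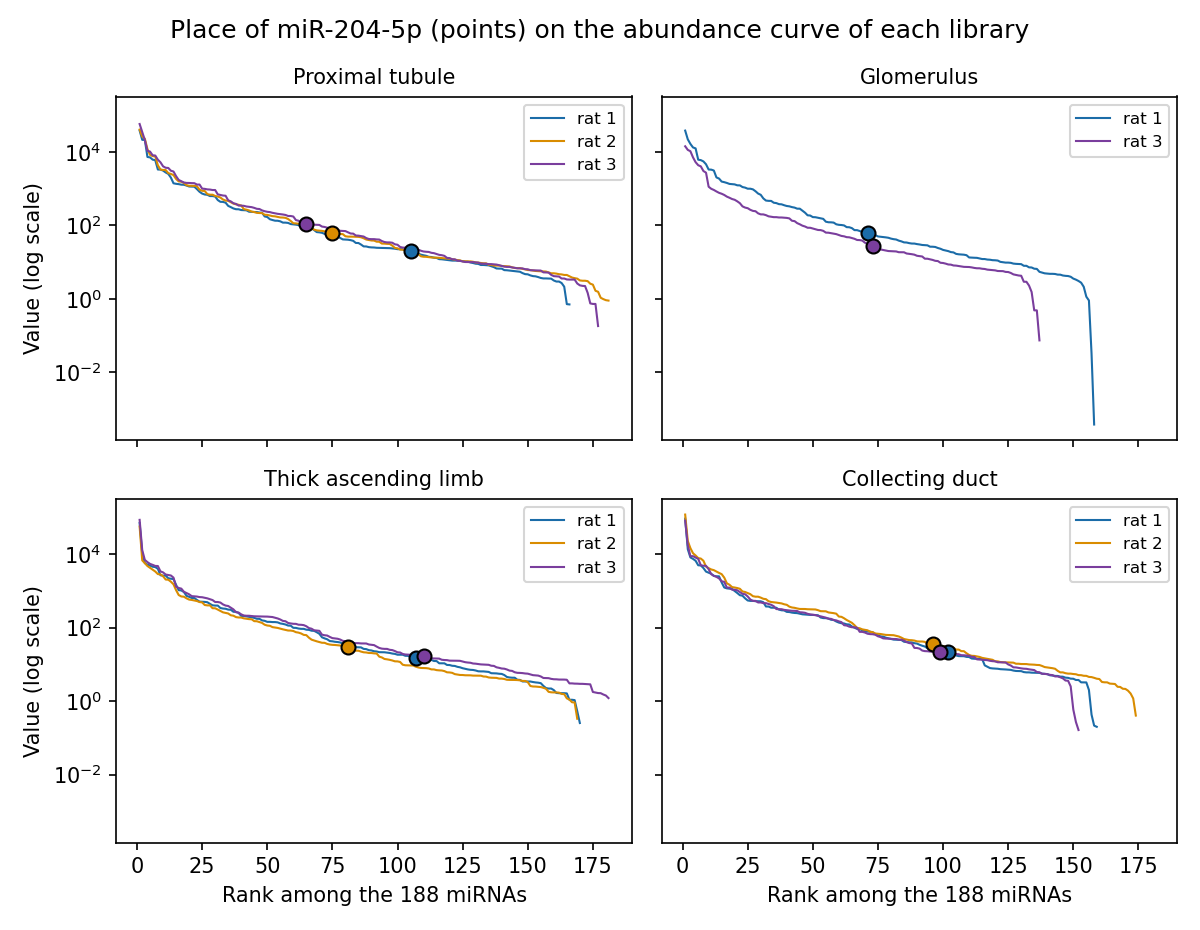
Library mean value (vertical axis, log scale) of the miRNAs with a value above 0, in order of abundance (horizontal axis, rank among 188), 1 panel per segment and 1 line per rat, with miR-204-5p as a point. The points lie at ranks 65 to 105 in the proximal tubule, 71 to 73 in the glomerulus, 81 to 110 in the thick ascending limb and 96 to 102 in the collecting duct.

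Whether the level differed among the 4 segments was tested with limma on log2(value + 1), with the rat as a block and Benjamini-Hochberg adjustment over all 188 miRNAs. It did not pass the test (F-test p = 0.224, adjusted p = 0.376), while 24.5% of the miRNAs did at an adjusted p of 0.05. An exact permutation test of miR-204-5p by itself, with segment labels permuted within each rat, gave p = 0.219 for the level and p = 0.108 for the share of the summed value. The smallest p this design allows is 0.00174. A p that misses the threshold does not show that the segments hold equal levels. The intervals below give the differences that the fit allows. For the deposited values, limma took the SD behind its tests and intervals, 0.907 (log2), wholly from its variance trend over all miRNAs. The residual SD of miR-204-5p itself, 0.825 on 5 degrees of freedom, did not enter. The same SD served every segment, although miR-204-5p had an SD of 1.21 over proximal tubule libraries and 0.373 over collecting duct libraries. These intervals therefore do not measure its own spread between rats.

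On the deposited scaling, the largest fitted difference of the 7 comparisons was that between the proximal tubule and the thick ascending limb. miR-204-5p was 2.57-fold higher in the proximal tubule, a log2 difference of 1.36 ± 0.74 (SE), with a 95% interval from -0.09 to 2.82. The adjusted p from limma was 0.292, and 7.98% of the miRNAs were called in this comparison. The difference was above 0 in 3 of 3 rats, at 0.40 in rat 1, 1.06 in rat 2 and 2.62 in rat 3. When limma weighted each library by how closely it followed the fit over all miRNAs, the difference was 1.55 and its adjusted p 0.0220, in a fit that called 22.9% of the miRNAs in this comparison. Without the rat 3 proximal tubule the unweighted difference was 0.60, and without that of rat 1 it was 2.01.

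Against the collecting duct, the proximal tubule was 1.99-fold higher, with a log2 difference of 0.99 ± 0.74 (SE) and a 95% interval from -0.46 to 2.44. It was not called (limma, adjusted p = 0.437), while 10.1% of the miRNAs were. Rat 1 gave -0.11, rat 2 gave 0.78 and rat 3 gave 2.30. As with the thick ascending limb, rat 3 had the highest difference and rat 1 the lowest. Without the rat 3 proximal tubule the fitted difference was 0.23, and without that of rat 1 it was 1.63.

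Between proximal tubule and glomerulus the 2 rats with both segments went opposite ways. The log2 difference was -1.56 in rat 1 and 2.01 in rat 3. The fitted difference was 0.14 ± 0.85 (SE), with an interval from -1.53 to 1.82 and an adjusted p of 0.926 (limma). Of all miRNAs, 17.6% were called here. When every run was scaled to the same total, the sign turned, to -0.49 (interval -1.78 to 0.81). It also turned without the rat 3 proximal tubule (-0.74) and without the rat 3 glomerulus (-0.87), and the difference was 0.89 without the rat 1 proximal tubule and 1.16 without the rat 1 glomerulus.

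In the glomerulus miR-204-5p was 2.33-fold higher than in the thick ascending limb, a fitted log2 difference of -1.22 ± 0.85 (SE, limb minus glomerulus), with an interval from -2.90 to 0.46. This was not called (limma, adjusted p = 0.427), while 11.2% of the miRNAs were. Rats 1 and 3 gave -1.96 and -0.61, so the limb was the lower in 2 of 2 rats. Without the rat 1 glomerulus the difference was -0.21, with an adjusted p of 0.902 (limma), and without the rat 3 glomerulus it was -2.23. The collecting duct was 1.80-fold below the glomerulus by the fit. The difference was -0.85 ± 0.85 (SE), with an interval from -2.53 to 0.83, and the adjusted p was 0.565 (limma), with 14.9% of the miRNAs called. Rats 1 and 3 gave -1.45 and -0.28. Without the rat 1 glomerulus the sign turned, to 0.17, and without the rat 3 glomerulus the difference was -1.86.

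The thick ascending limb and the collecting duct were the closest pair of tubule segments. Their log2 difference was -0.37 ± 0.74 (SE), with an interval from -1.82 to 1.08 and an adjusted p of 0.873 (limma), and 2.13% of the miRNAs were called. The limb was below the duct in 3 of 3 rats, by -0.51, -0.28 and -0.32 on the log2 scale. Scaled to the same total the difference was 0.15, the opposite sign.

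All 3 tubule segments together, each weighted equally, were set against the glomerulus. The log2 difference of miR-204-5p was -0.64 ± 0.74 (SE), with an interval from -2.09 to 0.81. Its adjusted p was 0.606 (limma), and 19.7% of the miRNAs were called. Rat 1 gave -1.66 and rat 3 gave 0.37, so the sign rested on rat 1. Without the rat 3 glomerulus the difference was -1.66, and without the rat 1 glomerulus 0.37. Over all 188 miRNAs the median of this difference was 0.56, so miR-204-5p lay 1.20 below that median.

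**Figure D4:**
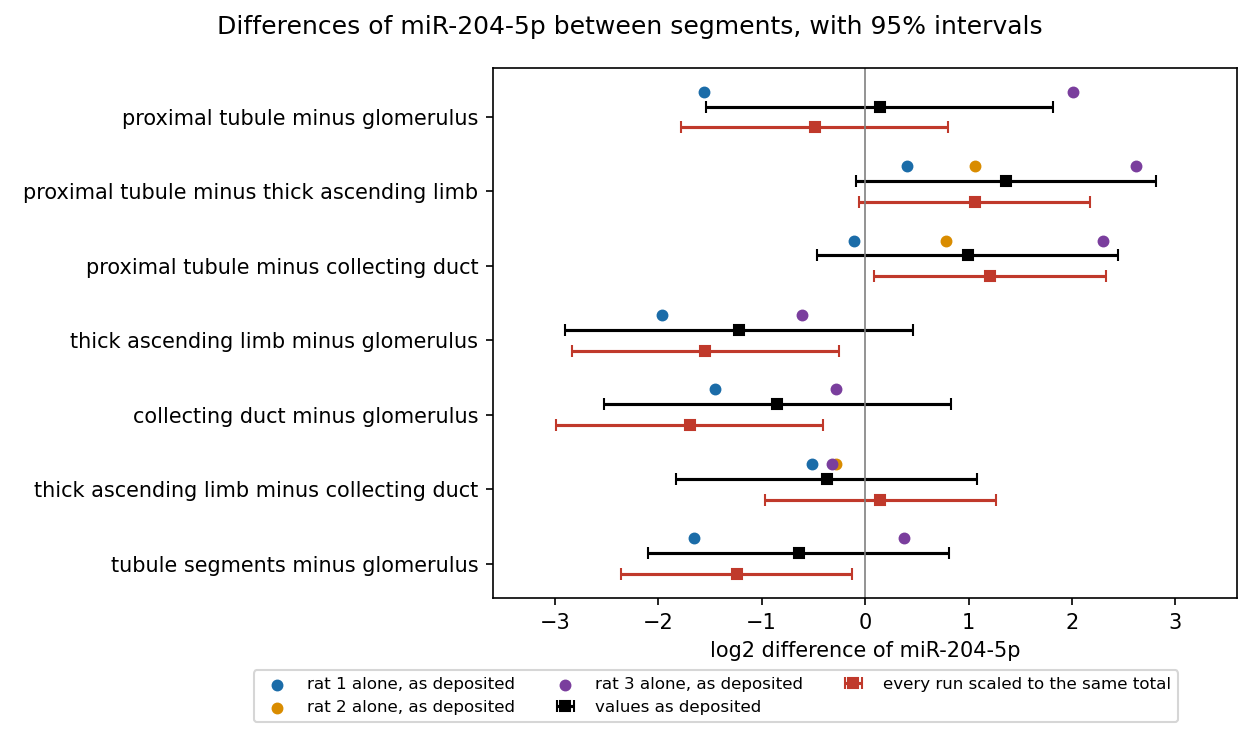
Log2 difference of miR-204-5p (horizontal axis) for 7 comparisons of segments. Dots are single rats, black squares the limma estimates from the deposited values, red squares those after every run was scaled to the same total, and bars the 95% intervals. Every black interval crosses 0, and the red interval does not for the proximal tubule against the collecting duct and for the limb, the duct and the tubules together against the glomerulus.

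The scaling of the libraries moved these differences. The deposited values put the median of all miRNAs at 0.56 for tubules minus glomerulus, and the scaling to the same total put it at 0.08. With the same total, the 4-segment test of miR-204-5p gave an adjusted p of 0.0672 (limma), with 37.2% of the miRNAs called. The largest differences then lay against the glomerulus. The collecting duct was -1.69 from the glomerulus (interval -2.99 to -0.40, limma, adjusted p = 0.0501) and the thick ascending limb -1.55 (interval -2.84 to -0.25, adjusted p = 0.0835). All 3 tubule segments together were -1.24 from it (interval -2.36 to -0.12, limma, adjusted p = 0.0920). The proximal tubule was 1.21 above the collecting duct (interval 0.09 to 2.33, limma, adjusted p = 0.111). These intervals are not adjusted for the 188 miRNAs, and no comparison of miR-204-5p passed 0.05 with this scaling.

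Kidney miRNAs from a list of 15, of which 12 were measured, were set beside miR-204-5p. Not all were abundant, and miR-200b-3p, at 42.0 in the glomerulus, stood next below miR-204-5p there. In tubules minus glomerulus 7 of the 12 rose and 0 fell by limma, where 14.9% of all miRNAs rose and 4.79% fell. At an unadjusted p of 0.05 the counts were also 7 and 0, against 23.9% and 7.45% of all miRNAs. Their median log2 difference was 1.83, against 0.56 for all miRNAs. The list was chosen with results of these data known and is no independent evidence of that direction. The estimate for miR-204-5p, -0.64, lay on the other side of 0, with an interval from -2.09 to 0.81. It was not called (limma, adjusted p = 0.606), and rat 3 by itself gave 0.37.

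miR-192-5p, an abundant miRNA of the proximal tubule, had 22626 ± 2930 there (SD, n = 3), against 1088 ± 462 (SD, n = 2) in the glomerulus, 3265 ± 1057 (SD, n = 3) in the thick ascending limb and 1791 ± 531 (SD, n = 3) in the collecting duct. It was 188 to 1038 times miR-204-5p in the proximal tubule and 23.2 to 28.6 times in the glomerulus. Over the proximal tubules of rats 1, 2 and 3 it was 21065, 26006 and 20807, an order in which rat 2 and not rat 3 was the highest. miR-194-5p, which shares a cluster with miR-192-5p, was 233, 360 and 323 in these 3 libraries. It was 2.92 to 11.5 times miR-204-5p in the proximal tubule and 0.165 to 0.594 times in the glomerulus. miR-30a-5p, abundant in kidney epithelium, was 32.6 to 276 times miR-204-5p over the 11 libraries, and miR-10a-5p 512 to 4977 times.

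The miRNAs whose log2 levels ran most like miR-204-5p were ranked by Pearson's r over the 11 libraries, among the 65 with a mean value of at least 100. They were miR-181b-5p (r = 0.774, Spearman's rho 0.627), miR-3586-3p (r = 0.707), miR-22-3p (r = 0.671), miR-146a-5p (r = 0.621) and miR-28-3p (r = 0.606). The median r of the 65 was 0.298. The points share the summed value of a library, which moves all miRNAs together. With every run scaled to the same total, the same 5 gave 0.761, 0.687, 0.656, 0.632 and 0.525. miR-181b-5p averaged 532 for the proximal tubule, 328 for the glomerulus, 246 for the collecting duct and 167 for the thick ascending limb. This was the order of miR-204-5p by mean value, as it was for miR-3586-3p. Both were picked by r over these same libraries, so the shared order is no separate evidence. miR-22-3p and miR-28-3p had a higher mean in the collecting duct than in the glomerulus. miR-146a-5p was highest in the glomerulus, at 786 against 463 in the proximal tubule. The least alike were miR-31a-5p (r = -0.461) and miR-92b-3p (r = -0.410), both with their highest mean value in the collecting duct, at 417 and 594. With the same total their r was -0.791 and -0.655. For deviations from the segment means it was -0.514 for miR-31a-5p and 0.554 for miR-92b-3p, the opposite sign.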

How the data were processed

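Small RNA libraries (TruSeq, 50 bp single-end reads, Illumina HiSeq) were made from laser-captured segments, per the labels' protocols. The deposited table held a non-negative signal per miRNA and run, TMM-normalized counts filtered at 100 by the authors, per the file name. How that filter was applied is not given in the sources used here. Partek 6.0, Bowtie2 2.2.5, Bowtie 1.0.0 and rn6 are named in the submitters' processing notes. The 4 runs marked as removed by the submitters, on flow cells A to D, were also titled as glomerulus of rat 3. They were not analysed here.

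Values were not counts, so no count model was run. The 4 runs of a library were averaged as log2(value + 1) for tests and as values for levels. limma 3.58.1 (R 4.3.3) was fitted to all 188 miRNAs and 11 libraries, with segment and rat as terms, a variance trend and two-sided contrasts. A call was a Benjamini-Hochberg adjusted p below 0.05. Segments of a rat come from the same animal, which pairs them. Their deviations had a median correlation of 0.03 over 15 same-rat pairs and -0.01 over 30 pairs from different rats. Scripts were tested on simulated data. Exact permutation tests used Python 3.11.15.

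Reads were estimated as a value divided by its run's step, taken from the lowest values. Between 88.5% and 100% of the low values of a run (up to 30 reads), and miR-204-5p in 44 of 44 runs, lay within 0.03 of a whole read. Intervals are 95% Clopper-Pearson. PCR reads without molecular identifiers are not independent molecules, so they cover counting error only.

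Named miRNAs were miR-204-5p, its neighbours in abundance order, the 5 most and 2 least correlated with it, and miR-192-5p, miR-194-5p, miR-10a-5p and miR-30a-5p from the kidney list. Members and lists were chosen with earlier results of these data known. Marker lists gave, in tubules minus glomerulus, 6 of 8 measured tubule epithelium miRNAs higher and 0 lower, also at an unadjusted p of 0.05. Every member of the tubule epithelium list is also in the kidney list, so this is no second result. Over all miRNAs the shares were 14.9% and 4.79% adjusted, and 23.9% and 7.45% unadjusted. Both endothelial strands were lower. Of 4 measured smooth muscle, pericyte and mesangial miRNAs 1, rno-miR-199a-3p, was higher by 2.69 (log2) and 0 lower, or 2 lower at an unadjusted p of 0.05. Neither of 2 measured white blood cell miRNAs was called, nor passed an unadjusted p of 0.05, and 0 of 2 red blood cell miRNAs were measured. The alternatives were other scalings, pseudocounts, filters and weights, single flow cells, no rat block, and leaving out libraries or rats.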

Additional observations from a re-analysis of the deposited data

How the results depend on the processing

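Of 227 values of miR-204-5p for a comparison under an alternative, 210 kept direction and call, 16 turned sign and 1 became a call. That call was proximal tubule minus thick ascending limb with library weights, at 1.55 and an adjusted p of 0.0220 (limma), where both glomerulus libraries had a weight of 0.248. The 210 include the 4-segment test, which has no direction, with 14 left-out and 14 other settings. Leaving out a library of neither segment could also leave an estimate as it was. Thick ascending limb minus collecting duct, for example, stayed at -0.37 without the rat 1 proximal tubule. The 210 therefore overstate how far direction was put to a test. For proximal tubule minus glomerulus (0.14 as reported), the sign turned with the same total (-0.49), median of ratios (-0.51), quantiles (-0.64), the total without miR-10a-5p (-0.39) and flow cell D alone (-0.080). With single libraries or rats left out it ran from -1.30 to 1.50. For thick ascending limb minus collecting duct (-0.37) the sign turned with the same total (0.15), median of ratios (0.067), quantiles (0.038), the total without miR-10a-5p (0.21) and flow cell B alone (0.23). Left-out libraries or rats gave -1.86 to 0.17 for collecting duct minus glomerulus and -1.66 to 0.37 for tubules minus glomerulus, with the sign turned by leaving out the rat 1 glomerulus and, for the last, also by leaving out rat 1. The cause was not tested. Proximal tubule minus thick ascending limb ran from 0.60 to 2.01 and stayed uncalled, with adjusted p from 0.101 to 0.881. Proximal tubule minus collecting duct ran from 0.23 to 1.63 and thick ascending limb minus glomerulus from -2.23 to -0.21.

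Without the replicate block of the rat, the paired design being ignored, proximal tubule minus thick ascending limb was 1.36 with an adjusted p of 0.206 (limma), and no call of miR-204-5p changed. Over the alternatives, counts of miRNAs called ran from 26 to 85 among the segments (46 as reported), 15 to 73 for proximal tubule minus glomerulus (33), 3 to 43 for proximal tubule minus thick ascending limb (15), 7 to 44 for proximal tubule minus collecting duct (19), 13 to 50 for thick ascending limb minus glomerulus (21), 14 to 67 for collecting duct minus glomerulus (28), 0 to 26 for thick ascending limb minus collecting duct (4) and 12 to 72 for tubules minus glomerulus (37). The exact permutation p ran from 0.118 to 0.417 for the level and from 0.0625 to 0.333 for the share when a library or rat was left out, and the share gave an exact p of 0.0503 on flow cell D alone. A filter on a mean of at least 100 left miR-204-5p with no value, since its mean is lower. The 24 to 336 reads behind a library, and the 2 glomerulus libraries, limit what could be told apart.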
